A study of Mus musculus with 2 samples.

Results

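Txnip and 9 antioxidant enzyme genes (Sod1, Sod2, Cat, Gpx1, Gpx3, Gpx4, Prdx1, Hmox1 and Nqo1) were examined in single mouse islet cells. The members were chosen by gene symbol, and all 10 were listed among the 31053 genes of both count matrices. The study prepared 1 droplet library of dispersed islet cells from virgin mice and 1 from multiparous mice. All were wild-type C57BL/6J females that were 9 weeks old at the start. The multiparous mice had gone through 3 consecutive pregnancies, and their islets were taken 3 weeks after the last delivery. The virgin mice were matched for age. The labels do not give the number of mice behind each library. The study states more than a single sample per group without saying how they entered the libraries, and cells of different mice cannot be told apart in these matrices. The islets of both groups were incubated for 30 min in serum-containing medium before they were dispersed with trypsin. With 1 library per group no difference between the groups could be tested. Every interval below is a 95% interval for counting error alone, so it covers neither the spread between mice nor that between cell preparations.

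Superoxide made by mitochondria and oxidases is turned into hydrogen peroxide by the superoxide dismutases, SOD1 in the cytosol and SOD2 in the mitochondrial matrix. Catalase in peroxisomes, the glutathione peroxidases and the peroxiredoxins then remove the peroxide. β cells are known in rodents for a low level of catalase and of glutathione peroxidase. TXNIP binds thioredoxin and restrains it, lowers glucose uptake, and its gene is strongly induced by glucose through the factors ChREBP and MondoA. Hmox1, the inducible heme oxygenase, and Nqo1, a quinone reductase, are textbook targets of NRF2, the factor that responds to oxidants.

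Of the members, Gpx1, Gpx3 and Gpx4 encode selenoproteins, which read a TGA stop codon as selenocysteine at the active site. The coding sequence around that codon is shown because these enzymes were far apart in level between the islet cell types. The TGA stands in capitals with 15 coding bases on either side, on GRCm38 and on the plus strand for each gene.
Gpx1: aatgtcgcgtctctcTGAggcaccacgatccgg
Gpx3: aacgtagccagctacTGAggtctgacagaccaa
Gpx4: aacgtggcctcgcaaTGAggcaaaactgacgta
The TGA of Gpx1 lies at chr9:108339451-108339453 in exon 1 of 2, as codon 47 of 201. That of Gpx3 lies at chr11:54907256-54907258 in exon 2 of 5, as codon 73 of 226. That of Gpx4 lies at chr10:80054737-80054739 in exon 3 of 7, as codon 129 of 253 of the longest transcript used. Over the 33 bases, Gpx1 and Gpx3 had 16 in common, Gpx1 and Gpx4 had 19, and Gpx3 and Gpx4 had 20.

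The promoter of Txnip is shown because Txnip gave the most unique molecular identifiers (UMIs, each standing for 1 captured mRNA molecule) of any member in β cells. The 150 bases before its RefSeq start (GRCm38.p6, plus strand, chr3:96557807-96557956) hold a pair of CACGNG stretches, separated by 5 bases and reading in the same direction, at -85 to -69. They also hold CCAAT letters at -102 to -98 and, on the other strand, at -137 to -133. Those letters are in capitals.
Txnip: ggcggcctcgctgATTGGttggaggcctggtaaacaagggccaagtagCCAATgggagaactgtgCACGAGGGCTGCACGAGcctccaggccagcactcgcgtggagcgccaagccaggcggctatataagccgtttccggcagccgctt
Stretches of this kind 5 bases apart are the layout known as a carbohydrate response element. Only pairs reading in the same direction were searched for, so their share is not that of all such elements. The same-direction pair was found on either strand in 15 of 32851 RefSeq promoters searched over the same 250 bases upstream (0.0457%). Plain CCAAT letters were found in 33.8% of them, and the palindrome CACGTG, absent from the Txnip window, in 6.02%. The core letters of an antioxidant response element, TGACNNNGC, were found in 10.2% of promoters and in 2 members, Sod1 at -56 to -48 and Prdx1 at -133 to -125, in both on the minus strand. The Prdx1 match is shown in capitals within chr4:116685439-116685498 (plus strand), where it overlaps letters that also read as an AP-1 site.
Prdx1: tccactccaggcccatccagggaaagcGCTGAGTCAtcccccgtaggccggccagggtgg
The Nqo1 window did not hold these letters. Of the 10 members, 9 had a promoter entry. A match is a description of the letters only.

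The genes lie apart in the genome (GRCm38): Txnip at chr3:96557957-96561883, Sod1 at chr16:90220754-90226329, Sod2 at chr17:13006846-13040063, Gpx1 at chr9:108338903-108340343, Gpx3 at chr11:54902453-54910377, Gpx4 at chr10:80047166-80056439, Prdx1 at chr4:116685544-116700822 and Hmox1 at chr8:75093621-75100589, all on the plus strand. Cat at chr2:103453849-103485160 and Nqo1 at chr8:107388225-107403206 lie on the minus strand. No exon of another gene overlapped a member on the same strand. Txnip has an antisense neighbour, Gm15441, with 223 and 142 UMIs in the kept cells of the virgin and multipara libraries against 19957 and 18094 for Txnip. A pseudogene of Gpx4 was not listed in the matrices, so reads it might share with Gpx4 could not be followed.

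The libraries held 94853806 (virgin) and 82503776 (multipara) UMIs in 5463 and 5075 cell barcodes, of which 7 barcodes were shared. The study's own filter on genes, UMIs and mitochondrial share, together with a doublet caller, kept 4330 cells (79.3%) and 3330 cells (65.6%). More multipara barcodes were lost for a mitochondrial share of 10% or more (30.5% against 17.8%). Cells were assigned by hormone UMIs or by at least 3 marker genes. This gave 1767 and 1574 β cells, 1022 and 634 α cells, 253 and 226 δ cells, 78 and 85 pancreatic polypeptide (PP) cells and 255 and 214 endothelial cells. There were also 60 and 61 pericytes, 59 and 88 macrophages, 127 and 38 T cells and 182 and 35 B cells. Marker genes outside the gates were higher in their own type with the exceptions of Lepr for δ cells and Fxyd6 for PP cells. β cells were the deepest, with medians of 29856 and 32151 UMIs per cell against 16330 and 17320 in α cells, 10140 and 10192 in δ cells and 4387 and 5431 in endothelial cells. Levels are therefore given as UMIs per 1000000 UMIs (CPM) over the summed cells of a type. Because insulin and the other islet hormones take a large part of all UMIs in endocrine cells, levels were also computed with the hormone genes left out of the total.

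**Figure D1:**
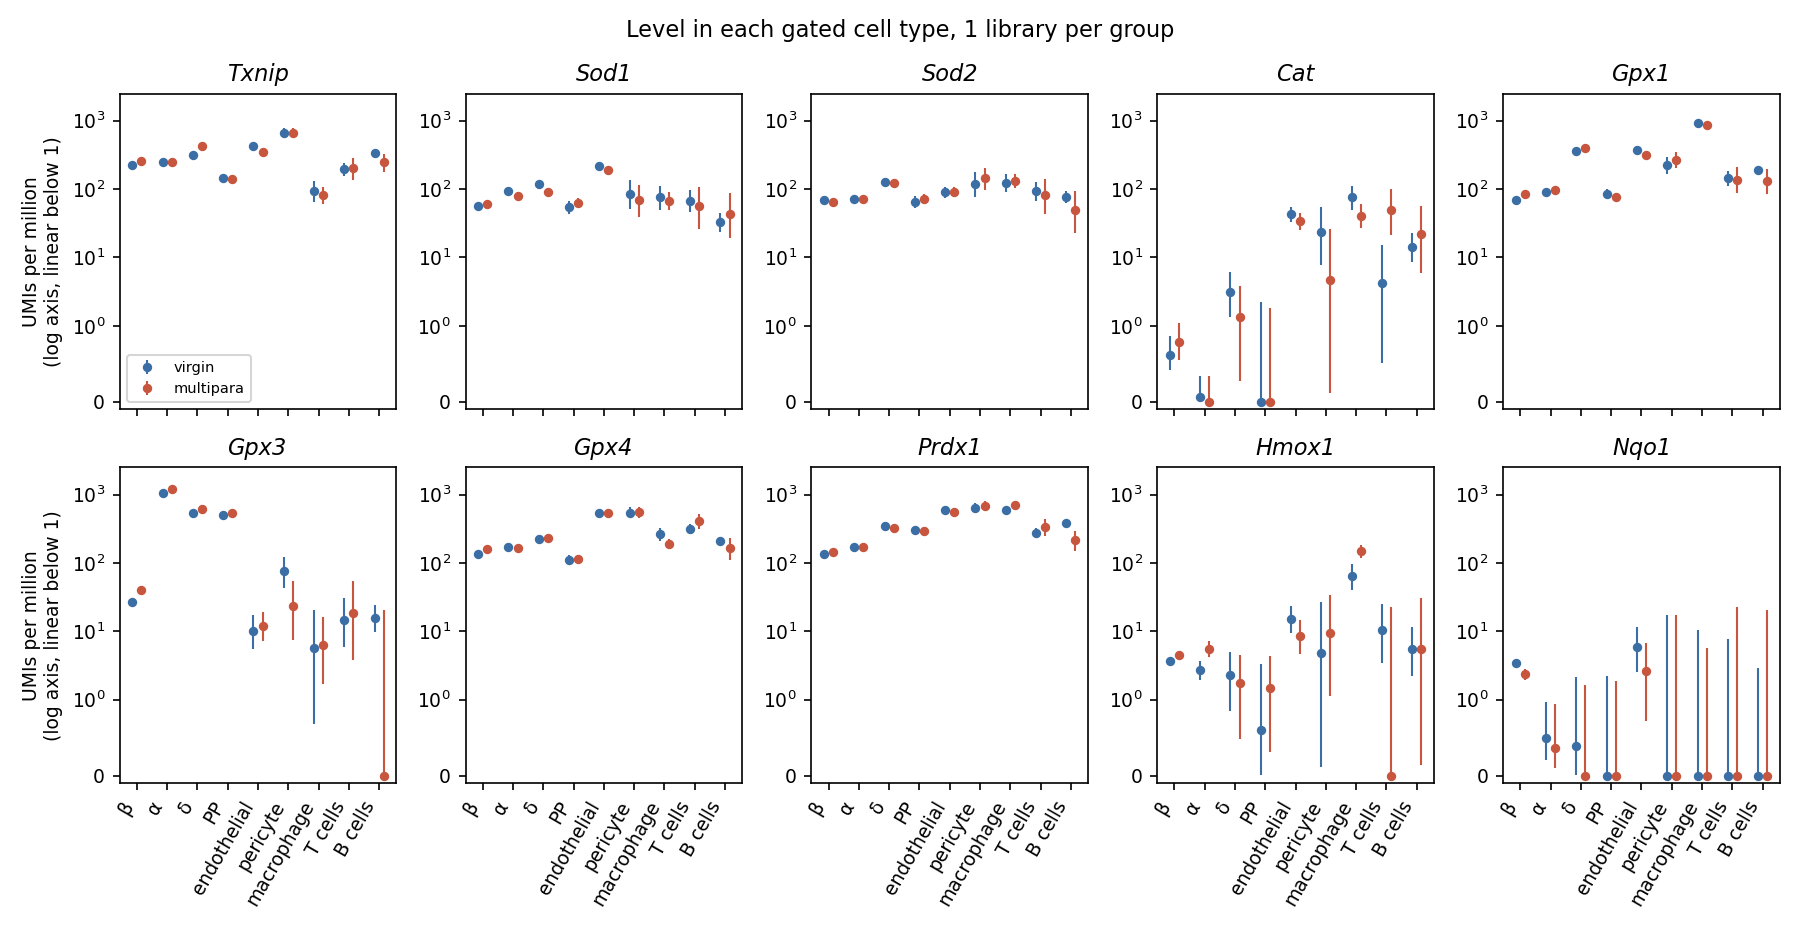
Level of each member in CPM (log axis, linear below 1) in 9 gated cell types, with the virgin library in blue and the multipara library in red; bars are 95% counting intervals. Among the endocrine types of the virgin library Gpx3 spans from 26.9 in β cells to 1048 in α cells, while Cat and Nqo1 lie near 0 in most endocrine types.

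Gpx3, the glutathione peroxidase that cells secrete, separated the endocrine cell types more than any other member with at least 100 UMIs in each of them. Its level was 1048 CPM (virgin) and 1218 CPM (multipara) in α cells, 540 and 620 CPM in δ cells and 495 and 538 CPM in PP cells. In β cells it was 26.9 and 40.6 CPM. α cells thus held 38.9-fold (virgin) and 30.0-fold (multipara) the β cell level, δ cells 20.04-fold and 15.3-fold, and PP cells 18.4-fold and 13.2-fold. With hormone genes left out of the total, the α over β ratio was 24.7-fold and 19.3-fold. Endothelial cells gave 14 and 18 Gpx3 UMIs in all (10.2 CPM in the virgin library), and macrophages stood at 5.61 and 6.29 CPM. Fibroblasts were the exception outside the endocrine cells, with 635 CPM from 270 UMIs in the 58 virgin cells; the multipara library held only 6 such cells and they were not compared.

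The shares of cells followed the same order after each cell was thinned to 2000 UMIs. A Gpx3 UMI was found in 83.1% (virgin) and 87.0% (multipara) of α cells, 64.5% and 68.8% of δ cells and 56.8% and 52.9% of PP cells. In β cells the shares were 5.84% and 7.69%, and in endothelial cells 1.31% and 2.88%. The β cell share was thus above the endothelial share at equal depth. The part of RNA carried over from other cells in these shares was not tested.

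Gpx1, the widely expressed cytosolic glutathione peroxidase, had another order. Macrophages were highest at 921 and 875 CPM (virgin and multipara). δ cells followed at 362 and 400 CPM beside endothelial cells at 374 and 312 CPM. α cells held 92.0 and 98.2 CPM, PP cells 84.2 and 75.7 CPM and β cells 69.2 and 83.6 CPM. β cells were at 182 and 226 CPM with hormone genes left out of the total, above α cells at 153 and 171 CPM. PP cells were then at 195 and 183 CPM and δ cells at 505 and 573 CPM. Among the endocrine cells, δ cells therefore stood apart from the other types. At 2000 UMIs per cell, 51.6% and 50.5% of δ cells had a Gpx1 UMI against 13.0% and 14.3% of β cells. Gpx4, which reduces lipid peroxides in membranes and is the enzyme best known for holding off ferroptosis, varied less. It was lowest in PP cells (112 and 116 CPM) and highest in pericytes (547 and 549 CPM), with β cells at 136 and 160 CPM. With hormone genes left out of the total, B cells were lowest (214 and 169 CPM), and PP cells were at 260 and 280 CPM and β cells at 357 and 432 CPM.

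Catalase was all but absent from endocrine cells. The whole of the β cells gave 31 Cat UMIs in the virgin library (0.614 CPM, interval 0.417 to 0.872) and 36 in the multipara library (0.781 CPM, 0.547 to 1.08). α cells gave 1 and 0 UMIs, PP cells 0 and 0, and δ cells 8 and 3. A count of 0 in the 85 multipara PP cells still allows a level up to 1.504 CPM, taking 3 counts as the limit. Cat was counted readily in other cells of the same libraries: endothelial cells held 59 and 51 UMIs (43.1 and 34.0 CPM) and macrophages 75.8 and 40.9 CPM.

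The superoxide dismutases were present in every cell type. Sod1 was highest in endothelial cells (215 and 193 CPM) and stood at 57.5 and 60.5 CPM in β cells, 93.4 and 79.6 CPM in α cells and 119 and 90.7 CPM in δ cells. With hormone genes left out of the total, the α over β ratio of Sod1 was 1.03 (virgin) and 0.846 (multipara), so that the order of these types depended on the hormone UMIs. Sod2 was at 69.9 and 64.0 CPM in β cells, 72.5 and 71.4 CPM in α cells, 128 and 121 CPM in δ cells and 123 and 132 CPM in macrophages. Its δ over β ratio of 1.83 and 1.89 became 0.972 and 0.999 without hormone genes in the total, and its α over β ratio of 1.04 and 1.12 became 0.658 and 0.718. Prdx1, a cytosolic peroxiredoxin that thioredoxin recycles, was at 137 and 143 CPM in β cells and 168 and 170 CPM in α cells. It was higher in δ cells (345 and 326 CPM) and PP cells (303 and 292 CPM) and reached 599 and 557 CPM in endothelial cells. Without hormone genes in the total, Prdx1 was lower in α than in β cells, at 0.780 and 0.768 of the β cell level.

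Txnip was found in every type. Pericytes were highest at 666 and 656 CPM, and macrophages lowest at 92.6 and 81.8 CPM. Among endocrine cells, δ cells held 318 and 430 CPM, α cells 250 and 250 CPM, β cells 224 and 261 CPM and PP cells 144 and 140 CPM. α and β cells changed order between the libraries. When hormone genes were left out of the total, β cells led the endocrine cells at 588 and 705 CPM, with δ cells at 444 and 615 CPM and α cells at 416 and 436 CPM, and pericytes were at 678 and 684 CPM. The place of β cells in the order of Txnip levels therefore rested on whether insulin was counted.

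Hmox1 and Nqo1 were rare. Macrophages, which recycle heme, had the highest Hmox1 level of the compared types at 64.6 and 148 CPM, while β cells held 3.68 and 4.45 CPM and α cells 2.71 and 5.60 CPM. Nqo1 gave 171 and 108 UMIs over all β cells (3.39 and 2.34 CPM) and 8 and 4 UMIs over all α cells. PP cells, pericytes, macrophages, T cells and B cells gave none in either library, which with 3 counts as the limit allows between 1.504 CPM (multipara PP cells) and 18.8 CPM (multipara T cells). Endothelial cells gave 8 and 4 Nqo1 UMIs, or 5.84 and 2.67 CPM.

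The comparison of multiparous with virgin mice asked how earlier pregnancies bear on the islet cells. In β cells the glutathione peroxidases Gpx3, Gpx1 and Gpx4 and Txnip were higher in the multipara library, Nqo1 was lower, and Sod1, Sod2 and Prdx1 differed little. A gene was called when it had at least 100 UMIs in the libraries together and was over 25% higher or over 20% lower in the multipara library. By that rule, 1 of the 9 members with enough UMIs was called higher (Gpx3) and 1 lower (Nqo1), against a background of 16.3% of 10897 genes called in β cells. The median log2 ratio of the 9 members was 0.22, beside -0.08 over all genes tested. Of the called genes in β cells 27.0% were higher, whereas TMM scaling, which divides by a trimmed mean of the gene ratios, gave 757 higher and 783 lower (49.2% higher). Under TMM, Gpx1, Gpx3 and Hmox1 were called higher and Nqo1 lower.

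**Figure D2:**
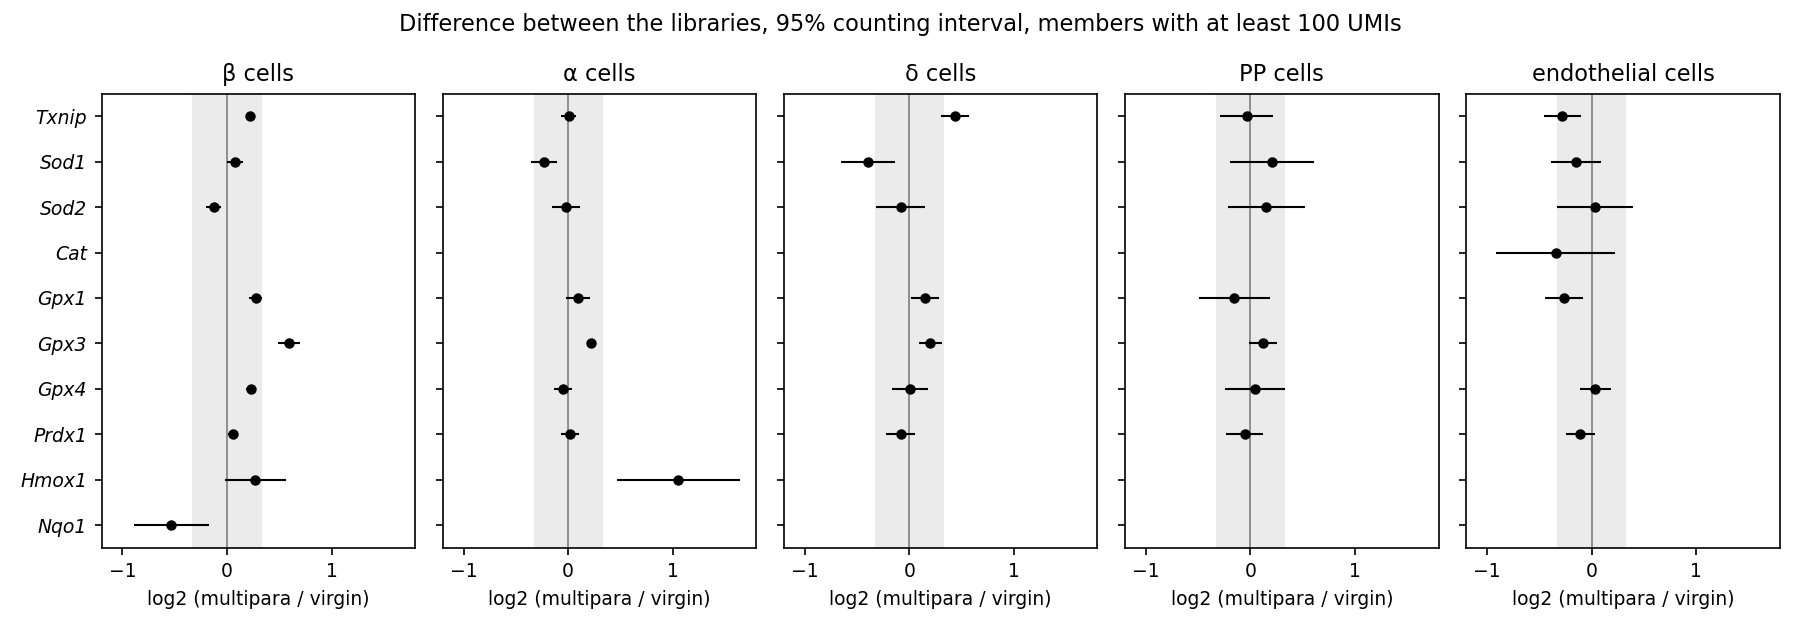
log2 ratio of the multipara over the virgin level for each member with at least 100 UMIs, in 5 cell types; bars are 95% counting intervals and the grey band is the range of ratios that were not called. Gpx3 lies above the band in β cells, Txnip in δ cells and Hmox1 in α cells, while Nqo1 in β cells, Sod1 in δ cells and Cat in endothelial cells lie below it, the last with an interval that spans 0.

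Gpx3 rested on 1360 UMIs in virgin and 1872 in multipara β cells. Its level of 26.9 CPM in the virgin library was below the 40.6 CPM of the multipara library, a log2 ratio of 0.59 (0.49 to 0.69). With each cell weighted equally rather than by its UMIs, it came to 0.21, no longer enough for a call. The α, δ and PP cells also had more Gpx3 in the multipara library, by smaller ratios of 0.22 (0.18 to 0.25), 0.20 and 0.12.

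Since β cells differed widely in depth, they were split into bands of UMIs per cell, a split chosen after the data had been seen. Gpx3 was higher in the multipara library in the 4 bands above 5000 UMIs, although at 15000 to 25000 UMIs the interval of the log2 ratio (-0.03 to 0.48) included 0. In cells of 25000 to 40000 UMIs (949 virgin and 745 multipara cells) it was 23.5 and 40.5 CPM, and at 40000 to 60000 UMIs 14.1 and 30.3 CPM. In the cells under 5000 UMIs (157 and 207 cells) the direction was opposite, at 120 and 55.6 CPM from 44 and 18 UMIs. These shallow barcodes had medians of 2369 and 1274 UMIs and insulin shares of 37.0% and 28.0%. Their part in the equally weighted value was not tested.

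**Figure D3:**
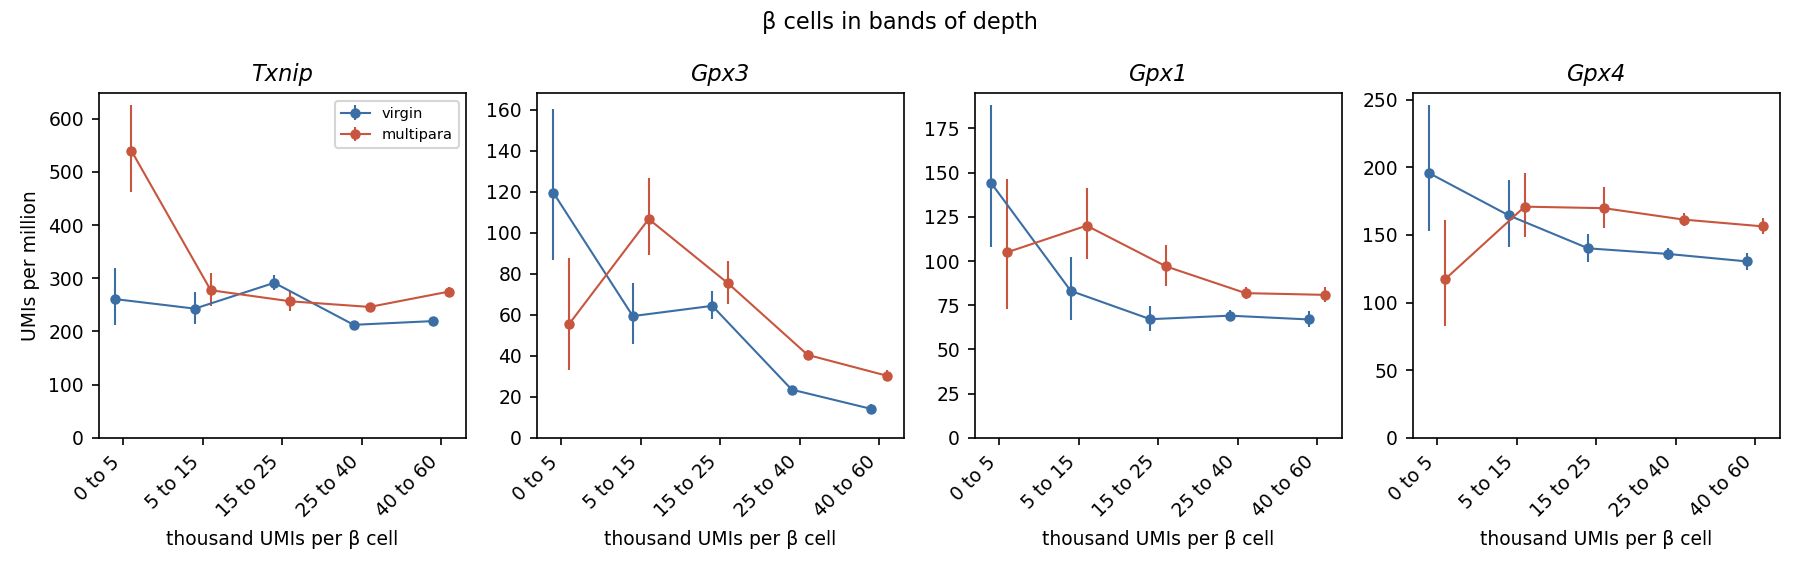
Levels of Txnip, Gpx3, Gpx1 and Gpx4 in CPM in β cells grouped by UMIs per cell (virgin blue, multipara red; bars are 95% counting intervals). Above 15000 UMIs the multipara points of Gpx3, Gpx1 and Gpx4 lie above the virgin points, and Gpx3 falls with depth to 14.1 and 30.3 in the deepest band.

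Markers of the other endocrine cells were read beside Gpx3 in β cells. Gcg, the glucagon gene of α cells, stood at 0.291% of its α cell level in virgin β cells and 0.174% in multipara β cells, and so was lower in the library in which Gpx3 was higher. There were 24.7 (virgin) and 59.4 (multipara) Gpx3 UMIs for each 1000 Gcg UMIs in β cells against 2.80 and 3.096 in α cells. In the β cells with under 0.1% of UMIs from Gcg, Sst, Ppy and Pyy (407 and 857 cells, a limit set after the data had been seen) Gpx3 was at 16.4 and 35.7 CPM, a log2 ratio of 1.13. In those with over 2% (55 and 34 cells) it was 158 and 245 CPM. Gpx3 thus climbed with the share of other hormones within each library. The log2 ratio between the libraries was 0.63 in the cells with over 2%. These groups also differed in depth, with medians of 32552 and 36221 UMIs under 0.1% against 18956 and 9294 UMIs over 2%. The part of RNA from other endocrine cells in the Gpx3 values was not tested.

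Gpx3 was also uneven between single β cells. Among β cells of at least 15000 UMIs, each thinned to 15000 (1492 virgin and 1245 multipara cells, with 275 and 329 left out), 21.8% and 27.4% had a Gpx3 UMI. In the unthinned β cells the shares were 32.0% and 35.7%. Cells with 3 or more Gpx3 UMIs made up 74 virgin cells (4.96%) and 100 multipara cells (8.03%). In the virgin library these cells held 98.2 CPM of Mafa, a transcription factor of mature β cells, against 340 CPM in cells without a Gpx3 UMI. Ucn3, the β cell maturity marker urocortin 3, was at 61.3 against 255 CPM, and the glucose transporter gene Slc2a2 at 144 against 294 CPM. In the multipara library the same contrast was 254 against 352 CPM for Mafa, 165 against 282 CPM for Ucn3 and 143 against 228 CPM for Slc2a2. Ppy was higher in the cells with Gpx3, at 4202 against 362 CPM (virgin) and 1464 against 209 CPM (multipara). Pyy was likewise at 3448 against 222 CPM and 953 against 65.5 CPM. Iapp, the amylin gene of β cells, was at 43632 CPM in virgin cells with 3 or more and 43575 CPM in those with none. The Gpx3-positive β cells therefore had less Mafa, Ucn3 and Slc2a2 and more RNA of PP cell hormones in both libraries, and whether they are single cells or droplets with more than 1 cell was not tested.

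Gpx1 differed in the same direction as Gpx3 in β cells, at 69.2 (virgin) and 83.6 CPM (multipara), a log2 ratio of 0.27 (0.21 to 0.34). Gpx4 was at 136 and 160 CPM, a ratio of 0.23. Both were higher in the multipara library in each band above 5000 UMIs per cell, for example 69.1 and 81.8 CPM of Gpx1 and 136 and 161 CPM of Gpx4 at 25000 to 40000 UMIs. Below 5000 UMIs both were lower, at 144 and 105 CPM for Gpx1 and 196 and 117 CPM for Gpx4. After thinning to 15000 UMIs, a Gpx1 UMI was found in 59.8% and 66.8% of deep β cells and a Gpx4 UMI in 86.0% and 89.6%.

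Txnip in β cells rested on 11306 and 12012 UMIs, the most of any member. Its level was 224 CPM (virgin) and 261 CPM (multipara), a log2 ratio of 0.22 (0.18 to 0.26) that stayed between 0.20 and 0.35 under 14 alternative settings. The direction varied with depth. It was higher in the multipara library at 25000 to 40000 UMIs (213 and 246 CPM) and at 40000 to 60000 UMIs (220 and 275 CPM), but lower at 15000 to 25000 UMIs (291 and 257 CPM). The shallow barcodes under 5000 UMIs held 261 and 540 CPM.

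Across single β cells, Txnip was spread more widely than the other abundant members. At 15000 UMIs per cell, 83.6% (virgin) and 86.5% (multipara) of deep β cells held a Txnip UMI. The median was 3 UMIs in both libraries and the 90th percentile 8, and the highest cells had 30 and 46. The variance was 3.44 and 3.62 times the mean. Gpx1 was at 1.34 and 1.62 and Gpx4 at 1.10 and 1.10, near the value of 1 that counting alone gives. Gpx3 was at 3.11 and 3.69, but from means of 0.43 and 0.63 UMIs per cell against 3.47 and 3.79 for Txnip. Where cells vary, this measure grows with the mean, so it does not rank Txnip against Gpx3.

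**Figure D4:**
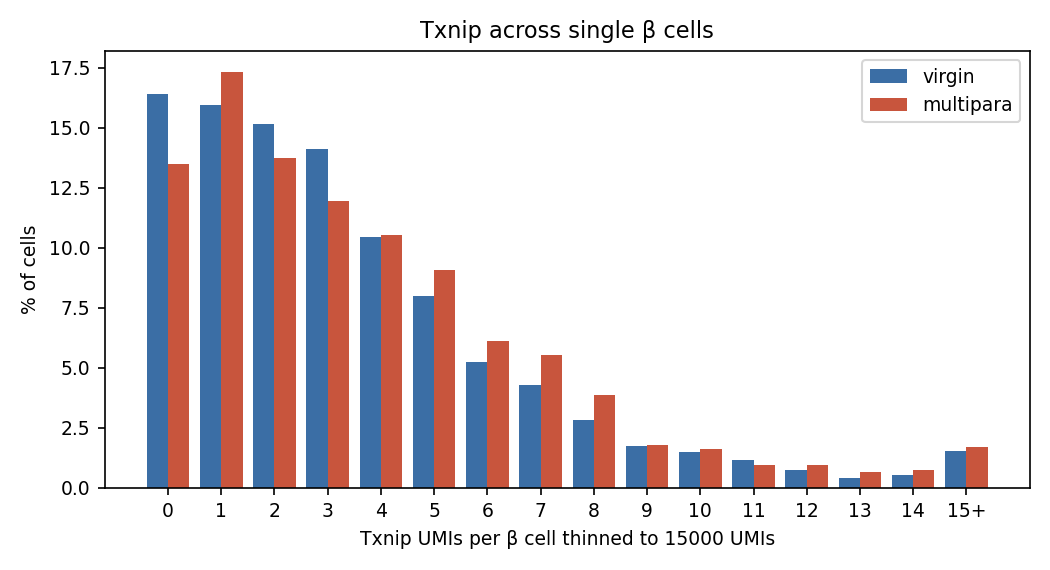
Share of β cells (percent) by number of Txnip UMIs after thinning each cell to 15000 UMIs, for 1492 virgin (blue) and 1245 multipara (red) cells. Both libraries share a median of 3 and a long right tail, and the multipara bar at 0 is the lower one.

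Genes of the early stress response to tissue dispersal were read beside Txnip. Of the 21 dissociation-response genes, 8 were called higher and 0 lower in multipara β cells, where 16.3% of all genes were called, with a median log2 ratio of 0.23; Zfp36, an mRNA decay factor, was at 0.61, and Atf3 and Hspa1a, a stress transcription factor and a heat shock protein, were each at 0.54, while Egr1 (-0.11), Jund (-0.12) and Ier3 (-0.30) were the lowest. In δ cells 12 of 20 were called higher and 0 lower, with a median of 0.39, where 18.1% of all genes were called. In α cells 1 of 21 was called higher and 1 lower, where 15.4% of all genes were called. The median there was 0.06, beside a Txnip ratio of 0.00. In PP cells 0 of 18 were called higher and 1 lower, where 18.1% of all genes were called. Their median was 0.02, beside a Txnip ratio of -0.04. The other types did not all pair the list with Txnip. The median of the list was 0.27 in pericytes and -0.34 in T cells. Txnip was at 666 and 656 CPM in pericytes (a ratio of -0.02) and at 193 and 200 CPM in T cells (0.05). In endothelial cells, where Txnip was lower, 1 of 20 genes was called higher and 1 lower. The part of the dissociation-response genes in the results for Txnip was not tested.

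Sod1 (0.08) and Prdx1 (0.06) differed little over all β cells. In those with under 0.1% of UMIs from Gcg, Sst, Ppy and Pyy, Sod1 was at 45.1 and 57.7 CPM, a ratio of 0.35 (0.22 to 0.49). Over all β cells Sod2 was at 69.9 and 64.0 CPM, a ratio of -0.13 (-0.20 to -0.06). That ratio was -0.04 under TMM and under median-of-ratios scaling. Nqo1 was at 171 and 108 UMIs, a ratio of -0.53 (-0.89 to -0.18) that was -0.10 after each cell was thinned to one depth, from 9 and 7 UMIs. Hmox1, with 186 and 205 UMIs, had a ratio of 0.27 (-0.02 to 0.57), whose interval included 0 and which turned to -0.65 when each cell was weighted equally.

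In δ cells Txnip was the member with the largest difference. It was at 318 CPM (virgin) and 430 CPM (multipara), a ratio of 0.43 (0.30 to 0.57), within a range of 0.25 to 0.51 under 12 alternatives. Sod1 was lower, at 119 and 90.7 CPM (-0.40, -0.66 to -0.14). These were the 2 called members of 7, against 18.1% of all genes tested in δ cells, and the median of the 7 was 0.01. Under TMM scaling Sod1 was no longer called, and 47.1% rather than 24.5% of all called genes were higher. Ins2 UMIs, which δ cells should not make, were at 5098 and 10224 CPM beside these values, and the summed level of 7 acinar genes was 120 and 142 CPM; their part in the results was not tested.

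In α cells 1 of 8 members was called, against 15.4% of genes: Hmox1 was higher, with 44 and 61 UMIs (2.71 and 5.60 CPM), a ratio of 1.05 (0.46 to 1.64), with values of 0.82 to 1.14 under 12 alternatives. Txnip was level at 250 CPM in both libraries, a ratio of 0.00, and the median of the 8 members was 0.01. Sod1 stood at -0.23. TMM scaling moved the share of called genes that were higher in α cells from 18.7% to 42.8%. In PP cells 0 of 7 members were called, against 18.1% of genes, and all ratios lay between -0.15 (Gpx1) and 0.21 (Sod1). For PP cells the share of called genes that were higher was 28.3%, and 51.4% under TMM.

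Endothelial cells had less Txnip in the multipara library, at 424 and 350 CPM (-0.28, -0.45 to -0.11), and less Gpx1, at 374 and 312 CPM (-0.26). Cat was the 1 member of 7 called lower, at 43.1 and 34.0 CPM, though its interval of -0.91 to 0.22 included 0; 20% of genes were called in these cells. Under TMM Cat was not called, and the share of called genes that were higher went from 43.7% to 55.5%. Ins2 in endothelial cells was at 7161 and 13315 CPM, and its part in these values was not tested. In macrophages Hmox1 was at 64.6 and 148 CPM from 23 and 94 UMIs, a ratio of 1.20. TMM scaling moved the median of all genes in macrophages from -0.06 to 0.16.

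The wider pathways were described by lists of genes without the members. Of the thioredoxin and peroxiredoxin list, 1 of 13 genes with enough UMIs was called higher and 0 lower in β cells (16.3% of all genes). The median log2 ratio was 0.02. Srxn1, the sulfiredoxin that repairs overoxidised peroxiredoxins, was highest at 14.7 and 18.6 CPM (0.34), followed by Txnrd2 (0.22), the mitochondrial thioredoxin reductase, and Txn1 (0.20), the thioredoxin that TXNIP binds. The lowest were Sesn1 (-0.06), Txnrd1 (-0.11) and Prdx6 (-0.13). In α and δ cells 0 of 13 and 0 of 11 genes of the list were called higher, and 0 and 1 lower. Of all genes, 15.4% and 18.1% were called in these types.

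The glutathione list had 1 higher and 3 lower of 16 in β cells, where 16.3% of all genes were called. Slc7a11, the cystine importer that feeds glutathione synthesis, went from 43 to 116 UMIs, a ratio of 1.56 (1.05 to 2.10), ahead of Gstm1 (0.20) and Gsto1 (0.20), both glutathione transferases. The glutathione transferases Gstk1 (-0.32) and Gstp1 (-0.53) and the glutathione peroxidase Gpx2, at 12.2 and 8.003 CPM (-0.61), were the lowest. In α cells 1 of 14 genes was higher and 3 were lower, where 15.4% of all genes were called. The higher one was Gpx2, with 126 and 163 UMIs and a ratio of 0.95 (0.60 to 1.29), opposite in direction to β cells. In δ cells 0 of 10 genes were higher and 1 lower, and in endothelial cells 2 and 2 of 10.

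Among 22 NRF2 targets and regulators in β cells, 2 were called higher and 1 lower (16.3% of all genes), with a median of 0.07. The genes at the top were Slc7a11, Srxn1 and Me1 (0.28), a source of NADPH. The called lower gene was Nfe2l2, which encodes NRF2 itself, at 16.9 and 13.1 CPM (-0.37), next to Bach1 (-0.25), a repressor of the same sites, and Gclm (-0.23), which encodes a subunit of the enzyme that starts glutathione synthesis. In endothelial cells Nfe2l2 was at 0.39, and 3 of 15 genes of the list were higher and 0 lower. In δ cells 0 were higher and 2 lower of 14 (18.1% of all genes), with a median of -0.20.

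None of 11 metallothionein and iron genes was called in β cells, where the median was -0.04 and 16.3% of all genes were called. They ran from Tfrc (0.26), the transferrin receptor, Slc40a1 (0.15) and Mt1 (0.10) down to Blvrb (-0.22), Blvra (-0.26) and Mt3 (-0.30). Of 13 genes that answer to ChREBP and glucose, 0 were higher and 1 lower in β cells (16.3% of all genes), with a median of -0.04. Me1, Fasn (0.21) and Gpd1 (0.16) were at the top of that list, and Mlxipl, which encodes ChREBP (-0.21), Pklr (-0.30) and Rgs16, at 24.7 and 15.6 CPM (-0.67), were at the bottom. Arrdc4, an arrestin family gene related to Txnip that glucose also induces, was at -0.04 in β cells. Of the 15 selenoprotein genes and genes for selenocysteine insertion, 0 were higher and 1 lower in β cells (16.3% of all genes), with a median of -0.04. Selenos (0.21), Msrb1 (0.16) and Selenok (0.10) were the highest, and Selenot (-0.25), Eefsec (-0.26) and Selenop, the secreted selenium carrier, at 201 and 141 CPM (-0.51), the lowest.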

How the data were processed

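Islet cells were profiled with a droplet 3′ kit. Per the submitters' processing notes the authors used Cell Ranger 3.1.0 with the mouse build GRCm38 (mm10), and Seurat 3.0; what they deposited are unnormalised UMI counts by gene and barcode for 1 virgin and 1 multipara library. 3′ UMI counts do not scale with transcript length. After the study's methods, a barcode needed over 200 but under 6000 detected genes, a total below 60000 UMIs and a mitochondrial share below 10%, and doublets were then removed with Scrublet in scanpy 1.11.5. β, α, δ and PP cells had at least 10% of the 99th percentile of the hormone's share of UMIs, with 1 hormone only (6.73%, 4.81%, 2.38% and 4.67% of UMIs). Cells above the threshold for several hormones (334 virgin and 251 multipara) entered no type. Other types had at least 3 markers and no hormone. Fibroblasts (58 and 6 cells) were too few to compare.

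Counts were summed per type and library and divided by their total (CPM). Intervals for levels are exact Poisson intervals, those for ratios exact conditional binomial intervals and those for shares Clopper-Pearson intervals, all at 95%. UMIs in a droplet library are not independent samples of mice. The members, the lists and the genes named from them were chosen with earlier results of these data known. The rule named all members and, of each list, the 3 highest and 3 lowest ratios in β cells among genes with at least 100 UMIs. Arrdc4 and the β cell and hormone genes set beside Gpx3 were named after their values had been seen. Counts of called members are given only for types in which at least 6 members reached 100 UMIs, a limit set after the data had been seen. Scripts were tested on simulated data. Alternatives to the scaling (TMM in edgeR 4.0.16, median of ratios, hormones left out), weighting, thinning, cell filters, gates, fold and UMI minimum were computed. Of the alternatives, 3 were added after the data had been seen: leaving out the cell with most UMIs of the gene, β cells with few UMIs of other hormones, and β cells of at least 15000 UMIs. Sequences came from RefSeq (GRCm38.p6 promoters) and GENCODE M21, in which 30934 of the gene IDs were found.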

Additional observations from a re-analysis of the deposited data

Results flagged for a closer look

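Txnip differed between the libraries in opposite directions in different cell types, with counting intervals that left out 0 on each side. The log2 ratio of multipara over virgin was 0.22 in β cells and 0.43 in δ cells, and it was -0.28 in endothelial cells and -0.46 in B cells. Gpx1 was higher in multipara β cells (0.27) and δ cells (0.15) and lower in endothelial cells (-0.26). Gpx4 was at 0.23 in β cells and at -0.47 in macrophages. Prdx1 was at 0.060 in β cells and 0.26 in macrophages and at -0.85 in B cells. With 1 library per group, none of these differences between cell types was tested, and the values for B cells rest on 35 multipara cells. In B cells the median log2 ratio was -0.25 over all genes tested and -0.55 over the members with enough UMIs. After B cells were thinned to 1500 UMIs, Txnip was at 0.03 in one random draw of UMIs and at -0.41 in another, so its direction there was not stable.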

How the results depend on the processing

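No paired analysis was possible because each group had 1 library, and for the same reason no library could be left out. The number of called members changed by more than 1.5 times under these settings. In β cells, where it was 2, it was 4 with TMM and 4 with median-of-ratios scaling, 1 with thinned cells, 1 at a fold of 1.5 and 6 in β cells with few UMIs of other hormones. In α cells, where it was 1 (Hmox1), it was 0 with thinned cells, with a mitochondrial share under 5% and with the lower hormone threshold of 5%. The Hmox1 ratio stayed past the call limit in all 12 alternatives, so its call was lost there only on the minimum of 100 UMIs. The number in α cells was 2 with a minimum of 10 UMIs or none. In δ cells, where it was 2, it was 1 under TMM, under median-of-ratios scaling and with hormone thresholds of 5% and 20%, 0 at a fold of 1.5, and 4 with a minimum of 10 UMIs or none. In PP cells, where it was 0, it was 2 with cells weighted equally and 1 without a minimum. In endothelial cells, where it was 1, it was 0 under TMM, under median-of-ratios scaling, with a mitochondrial share under 5%, at the 5% hormone threshold and at a fold of 1.5. It was 2 there without a cell filter and 3 with a minimum of 10 UMIs or none. The number of all genes called also changed with the setting, so these counts are not set against a background. In β cells it went from 478 higher and 1293 lower to 757 and 783 with TMM and 770 and 770 with median-of-ratios scaling. All genes called were 269 and 643 with thinned cells, and 766 and 728 in β cells with few UMIs of other hormones.

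Of the 14 log2 ratios past the call limit, 4 changed sign, each with cells thinned to one depth: Gpx4 in macrophages went from -0.47 to 0.46, and in B cells Gpx1 went to 0.28, Gpx4 to 0.11 and Prdx1 to 0.15. Another draw at the same depth gave -0.45 for Gpx4 in macrophages and 0.23, 0.26 and -0.43 for the genes in B cells, so that 2 of the 4 depended on the draw. Of the 41 smaller ratios, 20 changed sign under some alternative, among them Hmox1 in β cells, at -0.65 with cells weighted equally. In all, 670 values under an alternative stayed within their counting interval or, for a count, within 1.5 times. Another 101 moved further and 4 reversed. These values include the shares of β cells with a UMI of each member, thinned and unthinned, which differ because depth differs. For Txnip in virgin β cells the share was 31.5% thinned and 87.4% unthinned, so such moves say nothing of stability. The cause of the other moves was not tested. The thinned values rest on few UMIs in macrophages and B cells, and Gpx3 in β cells kept its direction in all 14 alternatives, from 0.21 to 1.13.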

Other observations

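Over 18 points (9 cell types in 2 libraries), the genes whose levels were most alike to a member were found by Pearson's r of log2(CPM + 10) among 6337 genes. The points share libraries and differ in depth, so r is a description. Txnip was most like Atad1 (0.92), BC003331 (0.91), Dph3 (0.90), Insig2 (0.89) and 1110038F14Rik (0.89). Gpx3, highest in α cells, was most like Nefm (0.97), which encodes a neurofilament, Dbpht2 (0.97) and the glutamate receptor gene Gria2 (0.96). Hmox1, highest in macrophages, was most like the cytokine gene Osm (0.95), Ifi207 (0.95) and the chemokine gene Cxcl16 (0.95). Sod1 was nearest to Mkl2 (0.93), Sod2 to Bmyc (0.93), Cat to Snap23 (0.93), Gpx1 to Klf6 (0.93), Gpx4 to Prr14 (0.98), Prdx1 to Rbm7 (0.91) and Nqo1 to 6430548M08Rik (0.88).

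Within deep β cells thinned to 15000 UMIs, Txnip and Gpx3 had a Spearman correlation of 0.13 (virgin) and 0.20 (multipara) across cells, which is weak in such sparse counts. Summed marker levels of cell types without a gate ranged over the compared types from 0.61 to 142 CPM for 7 acinar genes, highest in δ cells, from 9.31 to 796 CPM for 6 ductal genes, highest in δ cells, and from 0 to 30.4 CPM for 5 Schwann cell genes.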
